A study of Homo sapiens with 3 samples.

Results

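EP300 peaks annotated to exons and to 5' untranslated regions (5' UTRs) made up 2066 of 65276 peaks in replicate 1 and 2064 of 64896 peaks in replicate 2 of a chromatin immunoprecipitation experiment (ChIP-seq) in naive H9 cells, an established line of human embryonic stem cells. The share was 3.17% ± 0.011 (SD, n = 2). Members were taken from the authors' own annotation on chromosomes 1 to 22 and X, after rows with the same interval had been joined. In replicate 1 they were 1905 exon peaks and 161 5' UTR peaks, and in replicate 2 they were 1896 and 168. No peak height entered the choice.

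Both EP300 samples came from wild-type H9 cells grown in PXGL, a naive-state medium with the inhibitors PD0325901, XAV939 and Gö6983 and human LIF (10 ng/mL), over mouse feeder cells (the label's MEF layer). Chromatin was fixed for 10 min in 1% formaldehyde. The third sample, from the same cells, was input without antibody, and no table of it was analysed here. The 2 EP300 samples form 1 group, and since no label states that their cultures were separate, their spread may be technical. As a check of the label, a promoter peak in both replicates was found at 17 of 22 genes of the naive state, all 20 of the primed state and all 20 used in both states, against 68.1% of all coding genes. These counts do not tell the naive from the primed state.

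EP300 is a histone acetyltransferase that transcription factors recruit to enhancers and promoters, where it acetylates histones and other proteins. It does not read DNA sequence itself and reaches chromatin through other proteins. Coding exons can also hold binding sites for transcription factors, and one gene's exon can serve as an enhancer or an alternative start for another transcript.

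Exon and 5' UTR peaks are what remains in exons after promoter peaks have been set aside. Peaks in 3' untranslated regions (3' UTRs) form a class of their own, 1027 in replicate 1 and 1069 in replicate 2, and are not members. In both lists every member lay over 3 kb from the start site it was assigned to, because nearer peaks carry the promoter label. The deposited tables give the exon's number and its transcript but no exon coordinates. Whether a summit lay within the exon or beside it was therefore not measured. A member in exon 1 also had to lie over 3 kb from the start.

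Some exonic peaks covered a transcript start that RefSeq lists, although the authors' annotation gave them no start within 3 kb. Overlapping peaks of both lists were grouped, and the 1200 groups with an exonic peak from each replicate are called reproducible exonic regions. In 14 of them the peaks of both replicates covered a RefSeq gene start, 15 starts in all, of which 11 belonged to genes of long non-coding RNAs (lncRNAs). Only starts that the authors' annotation lacks could be counted here. The matching share for intron peaks and the lncRNA share of all RefSeq promoters were not computed, so these counts cannot be called high or low. The 300 bases around the 15 starts had a median GC content of 62.7% and a median CpG ratio, observed over expected, of 0.509, against 58.7% and 0.578 for all 34789 RefSeq promoters in the table. The 30 bases before the 5 starts whose regions ranked highest are shown because they lie just before a RefSeq start within an exonic region. They are from RefSeq (GRCh38.p14), 5′ to 3′ on the strand of the transcript, with CG pairs in capitals.
LOC105375993 (chr9:23851097-23851126, plus strand): caactgcCGgtcaacaCGCGcagcctactc
LOC124904384 (chr1:116168841-116168870, minus strand): cagtctgtgctcttttgcctggggccaact
LINC02551 (chr11:130862111-130862140, minus strand): CGccCGgtggccttgaggcCGgaaggtggc
LOC124900649 (chr4:2339738-2339767, plus strand): cacctCGgggcccctcttctcaccccacag
LOC101929388 (chr1:202236077-202236106, minus strand): actgggagagggggCGcctgcagagggaag

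The window of LOC105375993, whose region is annotated to the last exon of ENSG00000231460, held 3 CG pairs and its 300 bases had a CpG ratio of 1.16, the highest of the 15. Its region had fold enrichment 17.4 in replicate 1 and 18.3 in replicate 2, the authors' value of signal over background at the summit. LOC124904384, whose region is annotated to the last exon of LINC01779, had no CG pair in the window and a ratio of 0.448, with fold enrichment 19.9 and 14.8. CG content thus varied widely among these starts. LINC02551, whose region is annotated to its own exon 2, had 3 CG pairs in the window and fold enrichment 8.24 and 10.2. LOC124900649, whose region is annotated to exon 4 of 13 of ZFYVE28, had 1 CG pair and fold enrichment 7.95 and 7.81. LOC101929388, whose region is annotated to exon 4 of 18 of LGR6, a receptor gene of WNT signalling, had 1 CG pair and fold enrichment 6.82 and 10.6. No miRNA hairpin of the 1562 in the RefSeq table lay under a reproducible exonic region. The authors' annotation counts miRNA genes among its starts, and peaks within 3 kb of a start carry the promoter label. The absence of hairpins was thus largely set by that rule.

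Exonic peaks were weak peaks, close to intron peaks and well below promoter peaks in height. Fold enrichment had a median of 3.95 among replicate 1 exonic peaks (quartiles 3.27 and 5.26) and 3.92 among those of replicate 2 (3.27 and 5.36). Intron peaks had medians of 3.97 and 3.91 in replicates 1 and 2, distal intergenic peaks 4.09 and 4.13, and promoter peaks 5.67 and 5.71. Exonic peaks were narrower than promoter peaks but slightly wider than intron and distal intergenic peaks. Their median widths were 680 and 704 bp in the 2 lists, against 615 and 643 bp for intron peaks, 655 and 683 bp for distal intergenic peaks and 930 and 975 bp for promoter peaks. An annotation by overlap depends on peak width, since a wider peak can reach an exon more easily. How much of the width differences comes from this was not tested. Only 3.87% and 3.92% of exonic peaks stood above the 90th percentile of their list by fold enrichment, against 16.6% and 16.7% of promoter peaks. The highest exonic peak reached 32.7 in replicate 1 and 35.9 in replicate 2.

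**Figure D1:**
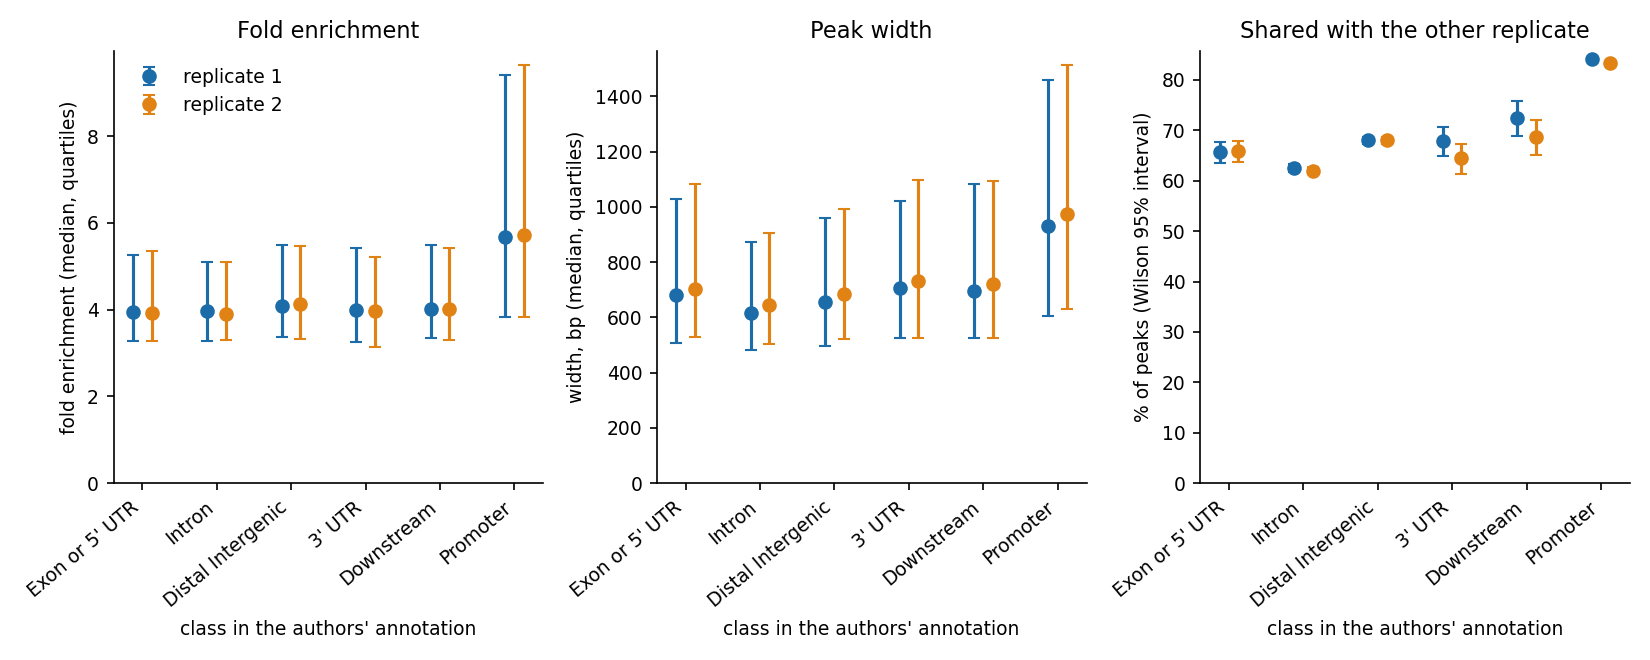
Fold enrichment, peak width in bp and the share of peaks overlapping the other replicate, by annotation class on the x axis and replicate by colour. Points are medians with quartile bars in the first 2 panels and shares with Wilson 95% intervals in the third. Exonic peaks sit beside intron peaks in fold enrichment, near 3.9, and below promoter peaks in all 3 panels.

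Most exonic peaks were found again. A peak was called shared where at least 1 bp of it lay under a peak of the other list, a rule that 74.5% of all replicate 1 peaks and 73.9% of all replicate 2 peaks met. Among exonic peaks, 1355 of 2066 in replicate 1 were shared (65.6%, Wilson 95% interval 63.5 to 67.6) and 1358 of 2064 in replicate 2 (65.8%, 63.7 to 67.8). This was below promoter peaks by 18.6 percentage points in replicate 1 (95% interval of the difference, exonic minus promoter, -20.7 to -16.5) and by 17.5 points in replicate 2 (-19.6 to -15.5). Intervals cover counting error only, since peaks of 1 library are not independent replicates, and they stand in for a test between classes.

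Against intron peaks the shared share was higher by 2.99 points in replicate 1 (0.771 to 5.16) and by 3.75 points in replicate 2 (1.53 to 5.91). Against distal intergenic peaks it was lower. Exonic minus distal intergenic was -2.37 points in replicate 1 (-4.57 to -0.224) and -2.18 points in replicate 2 (-4.38 to -0.0354). Of 3' UTR peaks 67.8% and 64.4% were shared in replicates 1 and 2, and of downstream peaks 72.5% and 68.6%. Among peaks 500 to 700 bp wide, a range set after seeing the data, exonic minus intron was 0.673 points (-3.60 to 4.85) and -0.317 points (-4.44 to 3.77). In that window the difference from intron peaks was not detectable, but both intervals include the values over all peaks, and median fold enrichment there was 3.68 and 3.64 for exonic peaks against 3.85 and 3.79 for intron peaks. Among peaks 3 to 10 kb from a start, also set after seeing the data, exonic minus intron was 3.62 points (0.718 to 6.45) and 5.74 points (2.84 to 8.55). The difference from promoter peaks at 500 to 700 bp was -12.8 points (-17.0 to -8.73) and -12.2 points (-16.2 to -8.17).

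Sharing followed height. Of the 710 exonic peaks among the lowest 25% of all replicate 1 peaks by fold enrichment, 43.2% were shared, and of the 256 among the highest 25%, 99.6% were, all but 1. That peak had fold enrichment 7.40 in exon 6 of 7 of ENSG00000285407 on chromosome 1, and it is named here because it was the only one. In replicate 2 the shares were 42.2% of 703 and 100% of 263. This was not particular to exonic peaks. Among all peaks of the lowest and highest 25%, 47.1% and 99.9% were shared in replicate 1, and 44.9% and 99.9% in replicate 2.

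Classes mostly matched where peaks overlapped. Of the shared exonic peaks of replicate 1, 1222 (90.2%) met a peak that was itself exonic in replicate 2, 80 met an intron peak and 31 a promoter peak. Of those of replicate 2, 1216 (89.5%) met an exonic peak, 90 an intron peak and 24 a promoter peak. The 1200 reproducible exonic regions were 2.59% of all 46263 groups with peaks of both replicates, and their median length was 1044 bp. In 1119 of them (93.2%) both replicates named the same transcript and exon or the 5' UTR. In the others the exon given for a region is that of replicate 1, and the exon of replicate 2 is stated where the region is described.

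Fold enrichment matched closely between the replicates over these 1200 regions. The median was 4.59 in replicate 1 and 4.68 in replicate 2, and in 1072 regions (89.3%) the values were within 1.5 times of each other. Pearson's r of log2 fold enrichment was 0.828 and Spearman's rank correlation 0.752, given as a description of the 2 lists, which may share the input library they were called against. In 18 regions the values differed by over 2 times, 9 of them higher in replicate 1 and 9 higher in replicate 2. The farthest apart, picked after their values were seen, was exon 13 of 14 of SFXN5, a mitochondrial transporter gene of the sideroflexin family, with fold enrichment 3.41 in replicate 1 and 12.2 in replicate 2. Peak widths there were 1060 and 4687 bp. In exon 3 of 13 of TNS4, a tensin gene of cell adhesion, the values were 4.51 and 14.6, and in exon 13 of 27 of SORCS2, a sortilin-family receptor gene, they were 10.6 and 3.70.

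**Figure D2:**
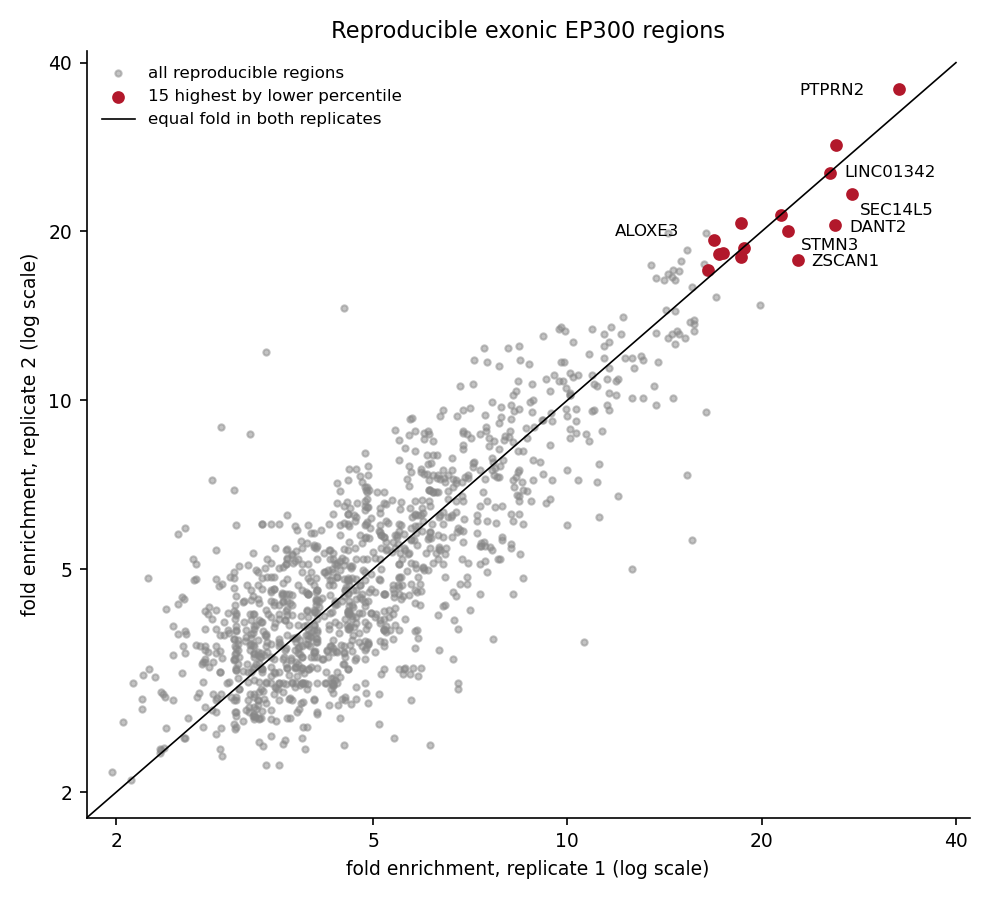
Fold enrichment of the 1200 reproducible exonic regions in replicate 1 (x axis, log scale) and replicate 2 (y axis, log scale), with 1 point per region. The line marks equal values, and the 15 highest regions, in red, lie at or above 16.5 in both replicates, with PTPRN2 at the top.

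The exons carrying peaks were spread over whole transcripts. The median exon peak lay in exon 5 of a transcript with 9 exons in both lists. Exon 2 held 348 exon peaks in replicate 1 (18.3%, Wilson 95% interval 16.6 to 20.1) and 329 in replicate 2 (17.4%, 15.7 to 19.1), and exon 3 held 328 and 323. Counts then fell with exon number, to 138 and 142 in exon 5 and 51 and 48 in exon 10, while 436 and 421 peaks lay beyond exon 10. Exon 1 held 30 peaks in replicate 1 and 36 in replicate 2, most of them in transcripts with a single exon.

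The last exon, single-exon transcripts included, held 530 of 1905 exon peaks in replicate 1 (27.8%, 25.9 to 29.9) and 524 of 1896 in replicate 2 (27.6%, 25.7 to 29.7). An even spread over all exons of each host transcript, exon 1 included, would have put 17% and 17.1% of peaks there. Yet exon 1 of transcripts with several exons held only 6 peaks per list, since peaks near a start carry the promoter label. That rule raises the share of the other exons, most of all in transcripts with few exons. Whether last exons are preferred therefore cannot be told from the excess over an even spread, and was not tested. Last exons are often the longest exons of a gene, and exon length was not available. Peaks annotated to 3' UTRs are not counted here, so the last exons of coding genes are covered only in part. In transcripts of 5 or more exons, the last exon held 8.83% of 1348 peaks in replicate 1 and 9.30% of 1366 in replicate 2, where an even spread gives 8.31% and 8.51%. Exon 2 held 6.90% and 6.95% there. Along such transcripts the peaks divided nearly evenly, with 22.9%, 27.8%, 25% and 24.3% in 4 equal steps of exon number from the 5' end in replicate 1, and 22.3%, 26.6%, 25.6% and 25.4% in replicate 2.

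**Figure D3:**
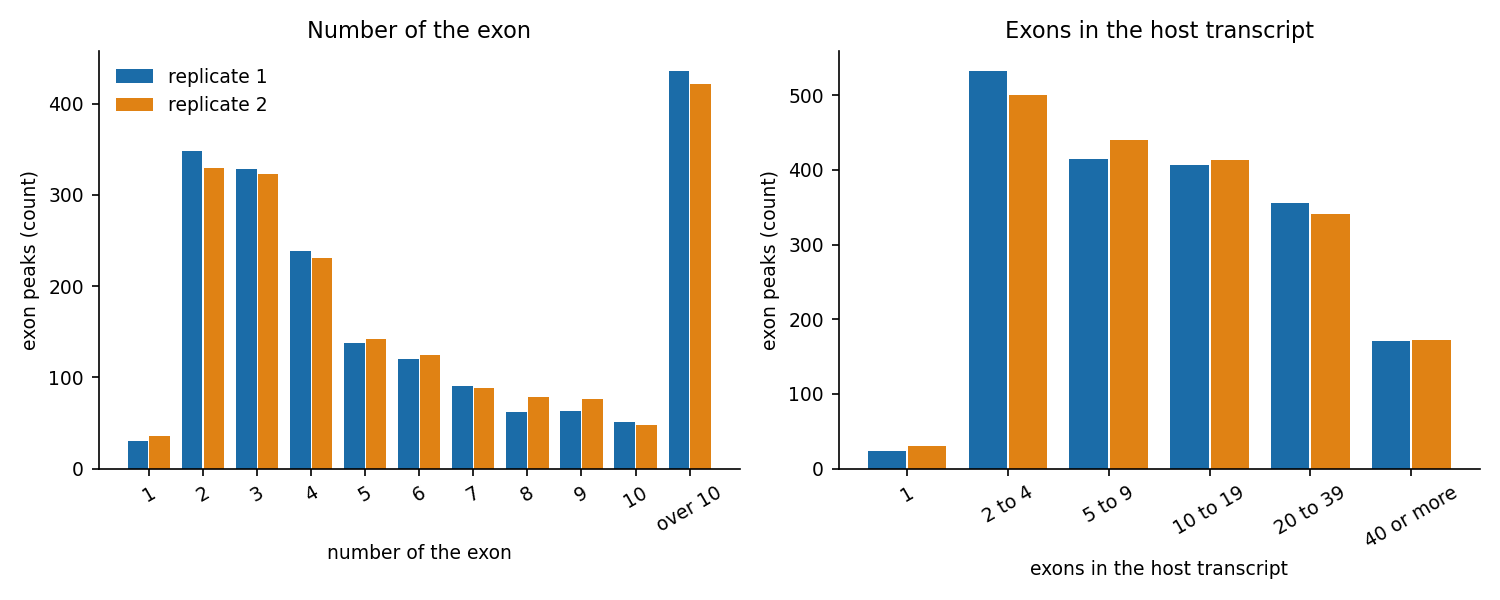
Number of exon peaks by the number of the exon (left) and by the number of exons in the host transcript (right), with 1 bar per replicate. Exons 2 and 3 hold the most peaks of any single exon number, 348 and 328 in replicate 1, and transcripts of 2 to 4 exons hold 533 and 500 peaks in replicates 1 and 2.

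Peak height varied little with position. Internal exons from exon 3 on held 1171 and 1185 peaks whose fold enrichment had a median of 3.83 in both lists. Exon 2, where it was not the last, stood at 4.10 in replicate 1 and 4.16 in replicate 2, last exons of several at 4.0 and 4.05, and 5' UTRs at 4.09 and 4.12. The quartiles of these groups overlapped widely, for example 3.22 and 5.02 for internal exons and 3.39 and 5.76 for exon 2 in replicate 1. Of the 5' UTR peaks, 75.8% in replicate 1 (Wilson 95% interval 68.6 to 81.7) and 69.6% in replicate 2 (62.3 to 76.1) were shared, against 63.1% (60.3 to 65.8) and 63.7% (60.9 to 66.4) of peaks in internal exons. The intervals were apart in replicate 1 and overlapped in replicate 2, and 5' UTR peaks were wider, at 764 and 847 bp against 666 and 682 bp.

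**Figure D4:**
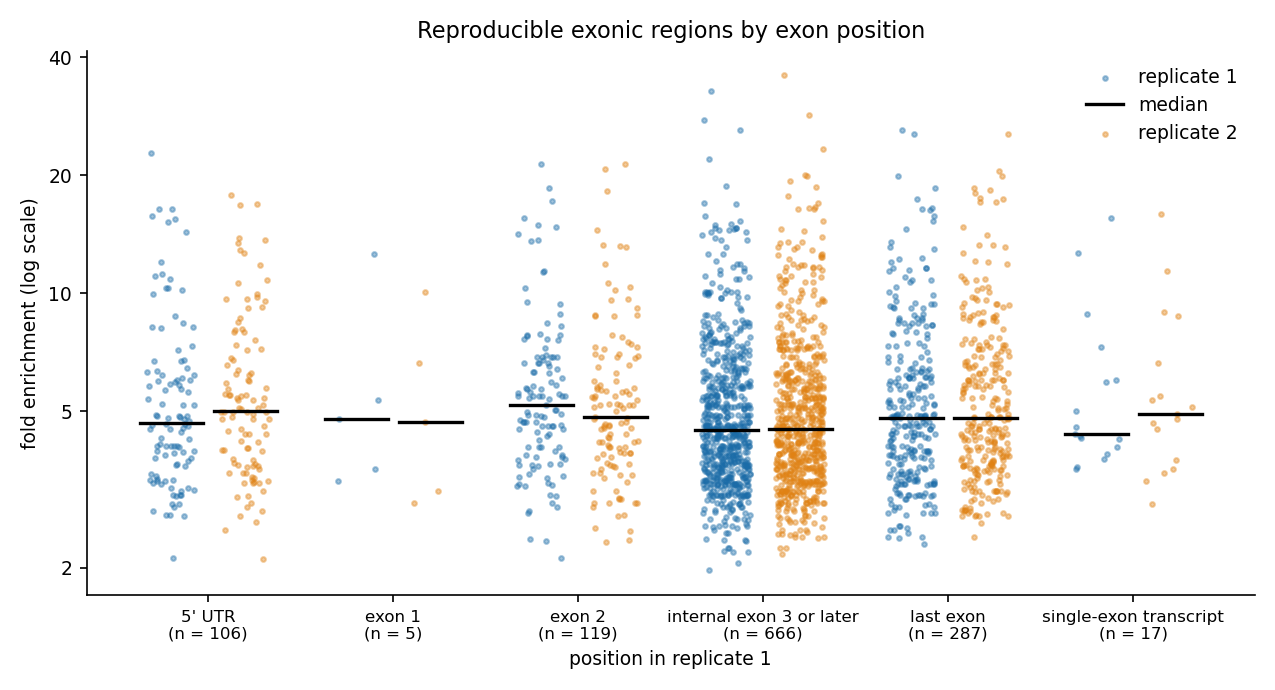
Fold enrichment (log scale) of the 1200 reproducible exonic regions by their position in replicate 1, with 1 point per region and replicate and black bars at the medians. The medians of all 6 positions lie between 4.39 and 5.20, and the highest points are in internal exons.

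Exonic peaks lay nearer to start sites than intron peaks did. The median distance to the nearest annotated start was 7.47 kb in replicate 1 and 7.64 kb in replicate 2, against 13.5 kb in both for intron peaks. This was not particular to exonic peaks, since it was 7.58 and 7.64 kb for 3' UTR peaks and 6.20 and 6.02 kb for peaks annotated as downstream. Within 5 kb of a start lay 27.9% and 26.5% of exonic peaks, against 13.9% and 14.0% of intron peaks. A promoter peak was found within 5 kb of 23.5% and 24.4% of exonic peaks, against 13.2% and 12.9% of intron peaks. For 3' UTR peaks these shares were 26.9% and 27.9%, and for downstream peaks 33.6% and 34.5%. Over 50 kb from any start lay 75 exonic peaks in replicate 1 and 78 in replicate 2. The gene with the nearest start was the host itself for 66.4% of exon peaks in replicate 1 and 65.1% in replicate 2, so the authors' gene assignment names another gene for about 1 in 3.

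The 1200 regions lay in 973 host genes, and 9 regions in 5' UTRs had no single host. Of the hosts, 820 had 1 region, 113 had 2 and 40 had 3 or more. By RefSeq symbol 605 hosts (62.2%) were protein-coding, 112 were lncRNA genes, 24 transcribed pseudogenes, 21 other pseudogenes and 1 a miscellaneous RNA gene. A further 210 could not be matched, 209 of them known in the files by an Ensembl number alone. The coding hosts were 3.03% of the 19974 coding genes. Their median RefSeq extent was 64.5 kb, against 24.2 kb for all coding genes.

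Most coding hosts also carried a promoter peak. In both replicates 517 of the 605 (85.5%, Wilson 95% interval 82.4 to 88.0) had a promoter peak assigned to them, against 68.1% of all coding genes. Gene length was not matched in this comparison, so its part was not tested.

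Regions in lncRNA exons were somewhat higher than regions in coding genes. The 123 regions with lncRNA hosts stood at median fold enrichments of 5.15 and 5.12 in replicates 1 and 2, against 4.44 and 4.50 for the 775 regions of coding hosts. The 237 regions of hosts without a RefSeq match stood between these, at 4.90 and 5.06. Each region was also given a percentile, by fold enrichment among all peaks of each list, of which the lower counted. It was above 90 for 11 of 123 lncRNA regions and 30 of 775 coding regions, a difference of 5.07 points (8.94% against 3.87%, 95% interval of the difference 0.878 to 11.5). Of the 15 highest regions, 6 had lncRNA hosts, 5 had coding hosts, 3 had hosts without a RefSeq match and 1 had a pseudogene host.

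The highest region of all lay at exon 3 of 22 of PTPRN2 (transcript ENST00000389413), which encodes a phosphatase-like membrane protein of secretory vesicles. It spanned chr7:158313873-158323612 (GRCh38), with fold enrichment 32.7 in replicate 1 and 35.9 in replicate 2 and -log10 q-values of 186 and 190. Its distance to the assigned start, one of PTPRN2 itself, was -108596 bp, which places it upstream of that start. Being annotated to exon 3, it lies within the gene, downstream of the start of ENST00000389413. SEC14L5, of a family of lipid-binding proteins, followed among coding genes with 27.6 and 23.3 at exon 3 of 16 (chr16:4987180-4988626). STMN3, a stathmin gene that acts on microtubules in neurons, had 22 in replicate 1, at exon 4 of 5, and 20 in replicate 2, where the same region was annotated to exon 3 (chr20:63642062-63644376). ALOXE3, a lipoxygenase gene of the skin barrier, had 16.9 and 19.3 at exon 8 of 15.

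Among the non-coding hosts, the last exon of LINC01342 had fold enrichment 25.5 and 25.4 in replicates 1 and 2, and exon 2 of LINC01138 had 18.6 and 20.7. DANT2, a non-coding gene beside the DXZ4 tandem repeat on the X chromosome, had 26 and 20.5 in its last exon. Reads from repeated DNA may not map to 1 place. LINC01993 (21.4 in both replicates, at exon 2 in replicate 1 and exon 3 in replicate 2), CHKA-DT (17.2 and 18.2), which runs away from the choline kinase gene CHKA, and NECTIN3-AS1 (16.5 and 17.1) completed the named lncRNAs in this group. ENSG00000286288, with 26.1 and 28.5 at exon 3 of 4, was the second highest region, and the files give it no symbol. PNLIPRP2, a pancreatic lipase relative that RefSeq lists as a transcribed pseudogene, had 18.8 in replicate 1, at exon 6 of 13, and 18.7 in replicate 2, at exon 5.

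The strongest 5' UTR region lay in ZSCAN1, a zinc finger gene of the SCAN family, at chr19:58037479-58039492, with fold enrichment 22.8 in replicate 1 and 17.8 in replicate 2. KBTBD11 had 16.4 and 16.9, FKBP5, a co-chaperone gene of the glucocorticoid receptor, had 14.3 and 16.8, and PRR7 had 15.5 and 13.8. DAGLA, the gene of an endocannabinoid-producing lipase, had 15.2 and 12.9. These 5' UTR rows name no transcript, so the host is the coding RefSeq gene that the peak overlapped, which was a single gene for 304 of 329 such peaks. For KBTBD11, PRR7 and DAGLA the gene with the nearest start was another one. The DNA methyltransferase gene DNMT3A had a 5' UTR region with 10.2 and 12.7, and the FGF receptor gene FGFR1 one with 7.36 and 5.50. Here too the nearest start was another gene's, MIR1301 for the DNMT3A region and RPS20P22 for the FGFR1 region.

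First exons held 5 reproducible regions in transcripts of several exons. CELSR2, a large cadherin gene of planar cell polarity, had fold enrichment 5.35 and 6.65 in replicates 1 and 2, with its peak 3841 bp from the start. ARHGAP10, which encodes a GTPase-activating protein, had 3.57 and 2.92. The other 3 regions lay in ENSG00000231881, at 12.6 and 10.1, 4.77 and 4.69, and 3.33 and 3.14. Single-exon transcripts held 17 regions, the highest in ENSG00000280434 with 15.6 and 15.9 and, in a second region of the same gene, 12.7 and 11.4. KCNQ1OT1, the antisense RNA of the imprinted KCNQ1 domain, held 3 regions, the highest with 4.39 and 5.12.

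Among last exons, UNC93B2, a pseudogene, had fold enrichment 16.4 and 19.9 in replicates 1 and 2 and ENSG00000253348 had 15.3 and 18.5. FOXO6, a forkhead factor gene, had 12.3 and 11.9, and ZNF469, a zinc finger gene linked to collagen assembly, had 10.8 and 12.1. In second exons, IQSEC1, the gene of an activator of ARF GTPases, had 14.8 and 13.3, and NFAM1, an immune receptor gene, had 14.9 and 13.1. EMBP1, a pseudogene of EMB, had 13.7 and 13.2. Pseudogenes share sequence with their parent genes, so their reads may belong in part to the parent.

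A few genes carried exonic regions again and again. COL5A1, which encodes a chain of type V collagen, had the most, 8, between exons 12 and 65 of 66 over 85.6 kb of chromosome 9. The fold enrichment of these regions ranged from 2.91 to 8.24 in replicate 1 and from 2.59 to 8.41 in replicate 2, and exon 47 was the highest in both. Of the 34 peaks within COL5A1 in replicate 1, 12 were exonic with COL5A1 as host, 7 were intron peaks and 12 promoter peaks. In replicate 2, 12 of 31 were exonic, 9 were intron peaks and 9 promoter peaks.

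Elsewhere exonic peaks were a small part of a gene full of peaks. PTPRN2 had 4 exonic regions, at exons 2, 3, 5 and 20, over 922 kb. It held 157 peaks in all in replicate 1, of which 135 were intron peaks, and 154 in replicate 2, of which 137 were intron peaks. Exon 3 stood far above the other 3, whose fold enrichment was between 3.74 and 6.25 in replicate 1 and between 4.14 and 6.86 in replicate 2.

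ANK1, an ankyrin gene of the membrane skeleton, and CCDC187 had 5 regions each. The highest ANK1 region had 14.5 in replicate 1, at exon 16 of 42, and 16.6 in replicate 2, at exon 14, while no CCDC187 region passed 5.04. A single high region beside low ones was also seen in CACNA1I, a T-type calcium channel gene, with 12.6 and 11.9 at exon 16 of 35 and at most 5.10 and 3.52 elsewhere. In SPTBN5, a beta-spectrin gene, exon 8 of 68 reached 13.8 and 11.7. In ADAMTSL2, an ADAMTS-like gene of the extracellular matrix, the highest region had 13.1 in replicate 1, at exon 4 of 19, and 11.8 in replicate 2, at exon 5. In ITGA11, the gene of a collagen-binding integrin chain, exon 22 of 30 reached 9.72 and 10.8. OTOF, FAM178B, IQSEC3, CFAP74, ATP9A and HYDIN2 also had 4 regions each, and HYDIN2 is a near copy of HYDIN, so its reads are uncertain.

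**Figure D5:**
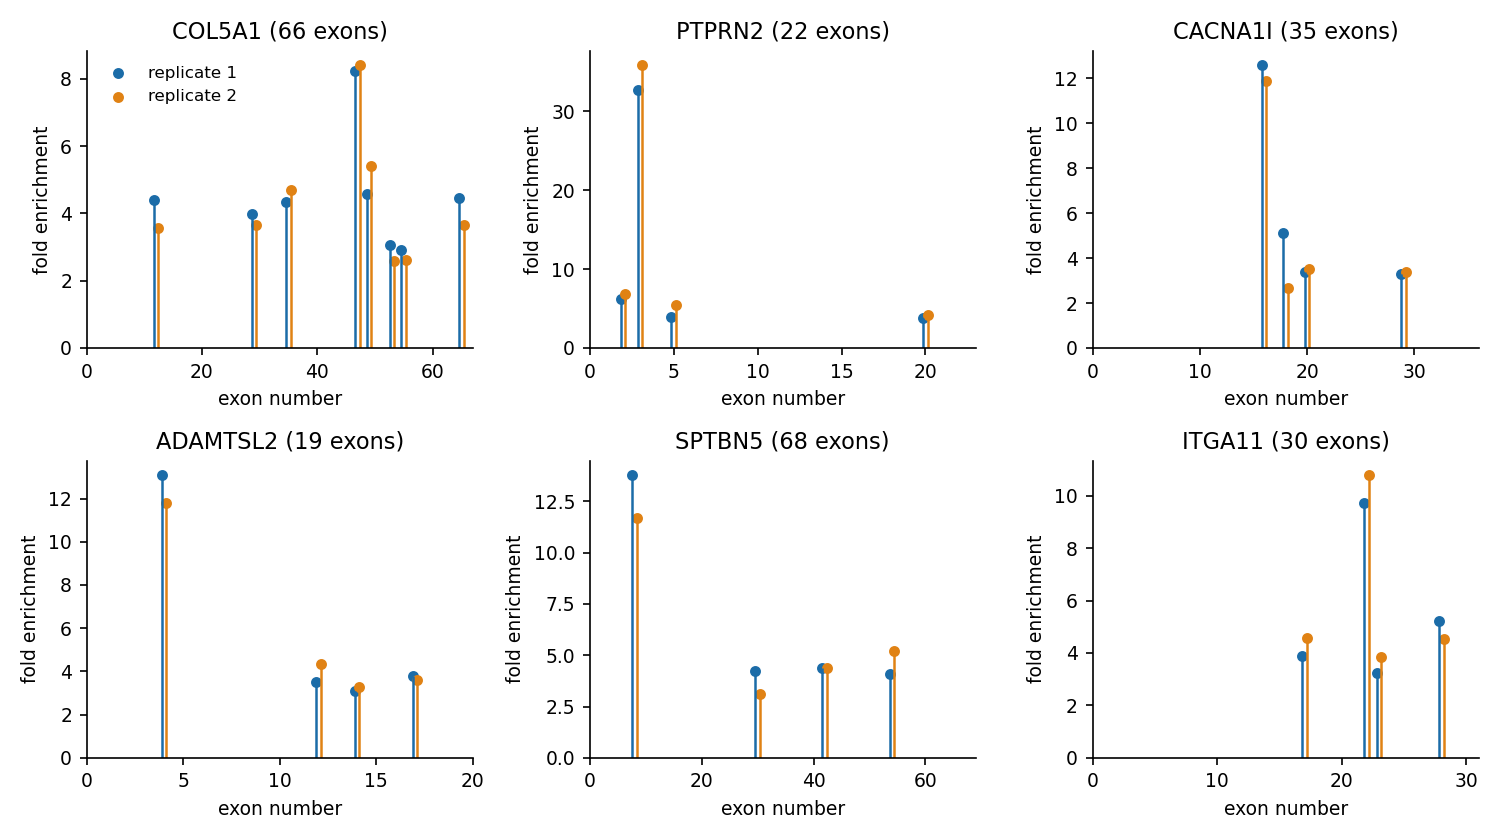
Fold enrichment of each reproducible exonic region (y axis) by the exon number annotated in replicate 1 (x axis) in 6 host genes with 4 or more regions, picked after their values were seen, with a stem per region and replicate by colour. In PTPRN2, CACNA1I, ADAMTSL2, SPTBN5 and ITGA11 1 region stands above the others in both replicates, and in COL5A1 the region at exon 47 does.

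Gene groups of the extracellular matrix held the most hosts for their size. Counts are given beside the 3.03% of all coding genes, without a test, and the groups differ in gene length and exon number. Of 24 ADAMTS and ADAMTS-like genes, which encode secreted metalloproteases and their relatives, 7 had an exonic region (29.2%), with 15 regions in all. ADAMTS8 had 7.43 and 12.4 at exon 4 of 9 and ADAMTS14 had 5.65 and 4.95 at exon 13 of 22, the highest of its 4 regions. Of 18 basement membrane genes 4 were hosts (22.2%), and of 44 collagen genes 7 (15.9%). These lists overlap, and COL4A2 was counted as a host in both. COL4A2, a chain of the basement membrane collagen, had 14.3 and 19.9 at exon 33 of 48 (chr13:110484017-110489391), and the laminin gene LAMB3 had 7.02 and 7.27 at exon 11 of 23. The proteoglycan gene AGRN stood at 2.94 and 3.82.

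Of 29 semaphorin and plexin genes 4 were hosts (13.8%), led by PLXNA4, a semaphorin receptor gene, with 7.49 and 8.97 in replicates 1 and 2. Of 22 NOTCH pathway genes 3 were hosts (13.6%), the regulator DTX1 with 8.08 and 12.4 and the ligands DLL3 with 3.09 and 3.39 and DLL4 with 4.91 and 2.89. Of 42 WNT pathway genes 4 were hosts (9.52%), all of them ligands. WNT5A had 5.97 and 6.09, WNT7B 3.99 and 3.80, WNT5B 2.39 and 2.60, and WNT3 2.34 and 2.35. The last 2 stood among the lowest regions of all. JAK3, a kinase gene acting at cytokine receptors, was the 1 host among 16 LIF and STAT3 genes (6.25%), with 8.53 and 4.82. FGFR1 was the 1 host among 27 ERK and FGF genes (3.70%), and 2 of 22 ephrin and Eph receptor genes were hosts (9.09%).

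Of 16 planar cell polarity and large cadherin genes 2 were hosts (12.5%), CELSR2, given above, and CELSR3, with 6.89 and 9.60 in replicates 1 and 2 at exon 2 of 35. Of 25 cytoskeleton and very long genes 3 were hosts (12%). The beta-spectrin gene SPTBN4 had 10.9 and 11.1, the axonemal dynein gene DNAH11 had 10.1 and 8.57, and the myosin gene MYH14 had 5.06 and 4.15. Of 26 imprinted genes 2 were hosts (7.69%), KCNQ1OT1 and KCNQ1.

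Of 22 naive genes 2 were hosts (9.09%), the T-box factor gene TBX3 with 8.83 and 9.54 at exon 7 of 8 and the surface marker gene SUSD2 with 3.53 and 3.08 at exon 9 of 15. None of the 20 genes used in both pluripotent states and none of the 20 genes of the primed state had an exonic region, and every gene of both lists had a promoter peak in both replicates. At a background of 3.03%, lists of this size would hold about 1 host or none, so a count of 0 says little. No O-GlcNAc pathway gene of 14 and no coactivator or acetyltransferase gene of 22 was a host, EP300 itself included.

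Among chromatin genes, 3 of 35 histone methylation genes were hosts, KDM4B with 6.61 and 6.19, PRDM16 with 5.78 and 5.64 and KDM6B with 3.36 and 3.28 (exon 15 in replicate 1, exon 16 in replicate 2). DNMT3A was the 1 host of 16 DNA methylation genes. Of the 28 deacetylase and corepressor genes none was. In all, 10 of the 33 gene lists had no host.

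Counts in marker lists of other lineages were 2 or fewer, too small to set against the 3.03% of all coding genes. Of 18 trophectoderm markers 2 were hosts (11.1%), TEAD3 with 7.17 and 11.8 in its 5' UTR and TP63 with 7.63 and 5.41. GATA4 (3.80 in its last exon in replicate 1 and 3.34 in its 5' UTR in replicate 2) was the 1 host of 17 primitive endoderm markers (5.88%). WNT3 was that of 18 mesoderm markers and COL5A1 that of 18 fibroblast markers (5.56% each), and there was none among 17 neuroectoderm markers.

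Of 509 ZNF genes 6 were hosts (1.18%), led by ZNF709 with 15.7 and 13.3 in the last exon of a transcript of 2 exons. Of 390 olfactory receptor genes 1 was a host, OR51I2 with 4.58 and 3.31. No host was found among 94 keratin-associated protein genes and 53 clustered protocadherin genes. None was found among 39 HOX and 19 SOX genes either, lists so short that the background share would also give about 1 host or none. Members lie over 3 kb from their assigned start, so a short gene has little room for one. Gene length was not matched in any of these counts, so low counts say little about a gene group. Of 45 forkhead genes 2 were hosts (4.44%). The 380 solute carrier genes, with 13 hosts (3.42%), stood at the background of 3.03%. SLC29A3, a nucleoside transporter gene, led them with 11.9 and 10.2.

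By chromosome, the exonic share of peaks was highest on chromosome 22, at 4.83% in replicate 1 and 4.6% in replicate 2, and lowest on the X chromosome, at 1.46% and 1.58%. Chromosomes 20 (3.90% and 4.12%) and 15 (3.96% and 3.87%) followed chromosome 22 in both lists.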

How the data were processed

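Per the labels, EP300 ChIP-seq was done in 2 samples, with 1 input. Build GRCh38 and fastp 0.19.11 stand in the submitters' processing notes. ChIPseeker annotation is named in the deposited tables' titles. No aligner, peak caller or threshold is given in the sources used here. Per the file headers, the authors' tables give each summit a signal value, the fold enrichment (a ratio), and a -log10 p-value and -log10 q-value. The deposited score is 10 times the -log10 q-value and was not used. The tables hold no read counts, so depth is unknown.

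Rows of 1 interval were joined, keeping the highest fold enrichment. Python 3.11.15, pandas 2.3.3, numpy 2.4.6 and scipy 1.17.1 were used. Overlap and joining were tested on simulated data. Hosts came from the Ensembl ID in the annotation: of 1845 IDs, 1725 are named in the tables, 1420 with a symbol. Members and gene lists were chosen with earlier results of these data known. Named genes are the hosts of the 15 highest regions, the 8 highest per position (5 for single-exon transcripts), those with most regions, up to 4 per list, and the 5 widest or with most summits, of which only some are described, and 1 is not reported here. With 1 group of 2 samples no test between samples was possible. Alternatives were stricter thresholds, overlap rules, 1 replicate at a time, exon rows only and other host assignment.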

Additional observations from a re-analysis of the deposited data

How the results depend on the processing

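Of 29 settings that used both replicates, 4 stayed within their spread (for the count of hosts, within 1.5 times) and 25 moved. With a -log10 q-value of at least 5, 2.58% of peaks were exonic, 69.5% of them shared, with a median fold enrichment of 5.27 and a width of 917 bp. The last exon then held 29.7% of exon peaks and exon 2 held 20.6%, with 576 hosts. With a fold enrichment of at least 5 these values were 2.14%, 75.1%, 6.69, 1167 bp, 30.9%, 21.3% and 370 hosts. Both filters remove weak peaks by construction. With exon rows only, 2.92% of peaks were members, 65.1% were shared and the median fold enrichment was 3.91. Deposited rows without joining gave a share of 3.16%, and the mean of joined rows a median fold enrichment of 3.89. The shared share was 53.9% with a 50% overlap of both peaks, 59.0% if the other peak also had to be exonic, 56.1% for peaks 500 to 700 bp wide and 67.1% within 10 kb of a start, the last pair chosen after seeing the data. In transcripts of at least 5 exons the last exon held 9.06% and exon 2 held 6.93%. Each replicate alone gave 3.17% to 3.18% of peaks, medians of 3.92 to 3.95 and of 680 to 704 bp, 27.6% to 27.8% in the last exon, 17.4% to 18.3% in exon 2, and 1509 to 1517 hosts, since no second list was then required. With 2 replicates each lies within 1 SD of their mean by arithmetic, so these ranges say nothing about stability. The shared share has no value from 1 replicate. No paired analysis was possible because there is 1 group of EP300 samples. Depth limits could not be assessed.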
